A study of Mus musculus with 12 samples.

Results

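Mitotic transcripts were followed in B cells sorted from the peritoneal cavity (PerC) of mice that express a gain-of-function GPR34. The group held 10 genes of 56128 with a symbol: Bub1, Bub1b, Bub3, Mad1l1, Mad2l1, Anapc11, Cdc20, Aspm, Top2a and Mki67. They were picked by name with earlier results of these libraries known, so that their levels in KI MemB against control MemB are given as a description and without a test. All 10 genes passed the filter on low counts and are among the 14933 genes tested. RNAseq had been done on B2, sorted as IgD+IgM+, and on MemB, sorted as IgD-IgM-, with 3 libraries from control and 3 from KI mice for each cell type. In KI mice a truncated GPR34 and GFP are made from the Rosa26 locus once Cd21-Cre, which is active in mature B cells, has removed a stop cassette. Control mice were littermates. The labels give neither the age nor the sex of the mice and do not say whether a library came from a single mouse.

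The spindle checkpoint holds a dividing cell in metaphase until every chromosome is attached to the spindle. Kinetochores without microtubules recruit the kinase BUB1, its relative BUBR1 (encoded by Bub1b), the adaptor BUB3 and MAD1, and MAD1 converts MAD2 into the form that binds CDC20. CDC20 is the coactivator of the anaphase-promoting complex (APC/C), the ubiquitin ligase that releases the sister chromatids, and ANAPC11 is the RING subunit of that ligase. ASPM organizes the spindle poles, TOP2A untangles replicated DNA, and Ki-67, the product of Mki67, coats mitotic chromosomes and is the usual marker of cycling cells. Resting B2 and memory B cells are mostly out of cycle, and transcripts of many of these genes accumulate in G2 and M phase.

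The genes lie on 7 chromosomes of GRCm39 by the GENCODE M39 annotation, and each is protein coding. Bub1b is at chr2:118428684-118472076 and Bub1 at chr2:127643036-127673806. Bub3 is at chr7:131161880-131178553 and Mki67 at chr7:135291513-135318299. Anapc11 is at chr11:120488268-120499024 and Top2a at chr11:98883769-98915062. Mad1l1 is at chr5:139994439-140307351, Mad2l1 at chr6:66512208-66524204, Cdc20 at chr4:118290098-118294610 and Aspm at chr1:139382486-139421829. Exons of Anapc11 share 606 bases (7.51% of its exon length) with Alyref on the opposite strand, those of Cdc20 share 53 bases with Elovl1 and those of Mad1l1 37 bases with the long noncoding RNA gene Gm16121, both also on the opposite strand. Whether the counting used strand is not given in the sources used here, so reads from those stretches could not be assigned to a gene with certainty. Exons of Top2a share 122 bases with a small nucleolar RNA gene on its own strand, where strand would not tell the reads apart.

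Promoters of many G2 and M phase genes carry CCAAT boxes, bound by the factor NF-Y, and a cell cycle homology region (CHR), whose letters are TTTGAA or TTTAAA and which the MuvB complex binds. RefSeq promoter entries of GRCm38.p6, 250 bases before to 50 after the start, were found for all 10 genes, with 13 entries in total. CCAAT was present on either strand in a promoter of 8 of the 10 genes, against 37.4% of the 32851 promoters in the table. TTTGAA was present in 6 of the 10, Bub1b, Bub3, Cdc20, Aspm, Top2a and Mki67, against 17.9% of all promoters, and those 6 genes also held CCAAT, a combination found in 6.95% of all promoters. TTTAAA, which reads the same on both strands, was found in Aspm alone among these genes, against 13.2%. The E2F letters TTTCGCGC and TTTGGCGC were in none of the 13 entries and in 0.323% and 0.514% of all promoters. No match overlapped another, the share among the 10 genes takes any entry of a gene while the share of all promoters is per entry, and a match to these letters is a description of the sequence only.

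The 200 bases before the start are shown, 5′ to 3′ in the direction of the gene, with these matches on either strand in capitals, for the pairs Top2a with Mki67 and Aspm with Cdc20, whose levels moved together across the libraries, for Bub1, which has CCAAT alone, and for Mad2l1, which has none of these letters. The windows, on GRCm38.p6, are chr11:99024190-99024389 on the minus strand for Top2a, chr7:135716380-135716579 on the minus strand for Mki67, chr1:139454573-139454772 on the plus strand for Aspm, chr4:118437344-118437543 on the minus strand for Cdc20, chr2:127831860-127832059 on the minus strand for Bub1 and chr6:66535021-66535220 on the plus strand for Mad2l1.
Top2a: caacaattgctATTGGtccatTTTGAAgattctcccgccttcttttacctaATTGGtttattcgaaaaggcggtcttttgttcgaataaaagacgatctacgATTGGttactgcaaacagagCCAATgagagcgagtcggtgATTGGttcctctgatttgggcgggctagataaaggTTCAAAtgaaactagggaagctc
Mki67: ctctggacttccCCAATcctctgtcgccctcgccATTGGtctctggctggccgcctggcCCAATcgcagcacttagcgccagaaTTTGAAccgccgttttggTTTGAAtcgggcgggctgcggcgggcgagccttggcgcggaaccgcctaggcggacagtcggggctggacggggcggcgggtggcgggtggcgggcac
Aspm: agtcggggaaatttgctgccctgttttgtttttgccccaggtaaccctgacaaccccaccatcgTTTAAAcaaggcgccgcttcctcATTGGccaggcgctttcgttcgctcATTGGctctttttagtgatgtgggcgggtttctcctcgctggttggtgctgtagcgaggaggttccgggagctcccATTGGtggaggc
Cdc20: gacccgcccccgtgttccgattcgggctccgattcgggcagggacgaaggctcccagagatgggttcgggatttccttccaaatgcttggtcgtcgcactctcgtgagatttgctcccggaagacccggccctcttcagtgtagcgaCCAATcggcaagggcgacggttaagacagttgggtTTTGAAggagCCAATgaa
Bub1: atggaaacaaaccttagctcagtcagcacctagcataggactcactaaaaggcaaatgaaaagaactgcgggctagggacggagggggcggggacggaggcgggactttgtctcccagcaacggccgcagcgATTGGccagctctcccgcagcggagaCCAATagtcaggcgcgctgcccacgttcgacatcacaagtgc
Mad2l1: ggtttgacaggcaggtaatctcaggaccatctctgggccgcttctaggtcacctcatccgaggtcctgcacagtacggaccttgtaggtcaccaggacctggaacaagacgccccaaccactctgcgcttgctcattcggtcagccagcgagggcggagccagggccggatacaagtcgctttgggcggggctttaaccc
Top2a held 6 CCAAT matches and 2 TTTGAA matches in its entry, more CCAAT than any other of these genes. Mki67 held 3 CCAAT and 2 TTTGAA matches, all before the start. In Cdc20 TTTGAA began 18 bases before the start, between CCAAT matches that began 53 and 8 bases before it. In Aspm TTTGAA began at base 7 after the start, outside the window shown.

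Libraries held 29701381 to 39484437 counts, 29.5% to 38.5% of them from ribosomal RNA genes, and levels are given as CPM, counts scaled to library size with TMM factors. Gpr34 was at 101 to 113 CPM in KI B2 against 3.44 to 6.9 in control B2, and at 133 to 170 in KI MemB against 18.9 to 31 in control MemB, which follows the labels. A set of 6 B cell markers summed to 3098.8 to 3593.8 CPM in all 12 libraries. Ighm, which encodes the heavy chain absent from the surface of cells sorted as IgM-, was at 2026.8 to 2706.3 CPM in control MemB and at 299 to 570 in KI MemB. Libraries numbered 3 in each of the 4 groups had 91355 to 105564 counts of Xist and the other 8 had 875 to 2175, so that sex and the replicate number 3 cannot be told apart.

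Per kilobase of exon, Mki67 was the most abundant of the 10 genes, at a mean of 22.6 CPM per kb over the 12 libraries, followed by Top2a at 9.05, Bub3 at 4.79 and Aspm at 4.3. Cdc20 followed at 2.77 CPM per kb, Anapc11 at 2.2, Mad2l1 at 1.81, Bub1b at 1.75, Mad1l1 at 1.22 and Bub1 at 1.01. Mki67 was above Top2a in 12 of 12 libraries. Every later neighbour in that order changed places in some library, with Bub3 above Aspm in 7 of 12 and Cdc20 above Anapc11 in 5 of 12. The exon length used is the union over all annotated transcripts, 14.6 kb for Bub3, and levels per kb depend on it.

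**Figure D1:**
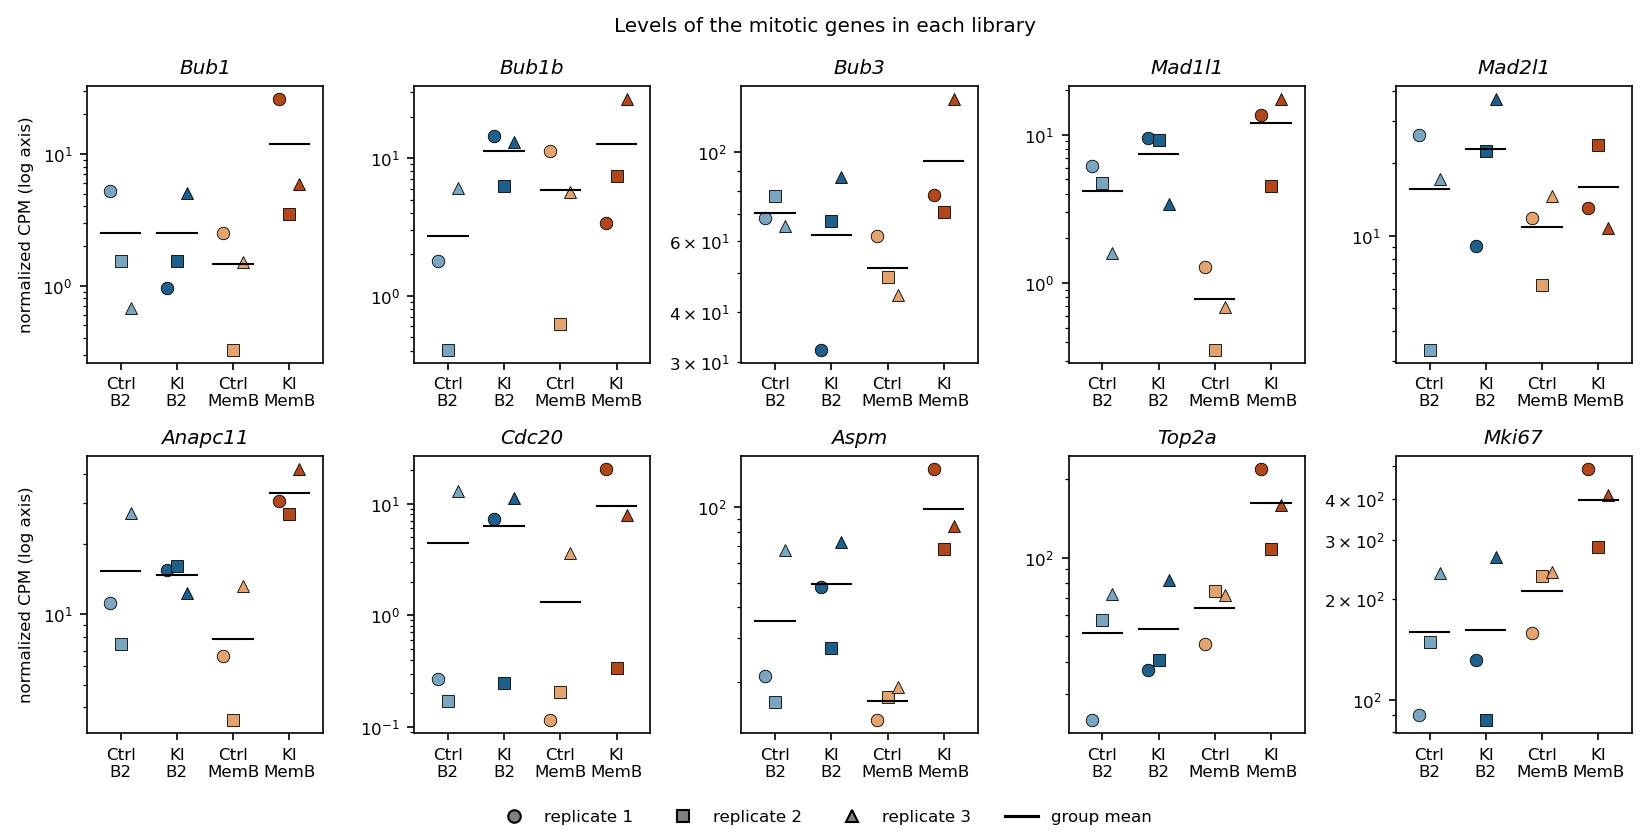
Normalized CPM (log axis) of the 10 mitotic genes in each of the 12 libraries, by group, with symbols for the replicate number and a bar for the group mean. In KI MemB the 3 Mki67 libraries sit at 286 to 490 CPM, above the 158 to 241 of control MemB, while the Cdc20 libraries of every group spread over more than 30-fold.

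The first question was how transcripts of the checkpoint genes compared between KI and control MemB. Bub1, the kinase that recruits the other checkpoint proteins, was at 26.4, 3.52 and 5.93 CPM in KI MemB replicates 1, 2 and 3 and at 2.52, 0.325 and 1.51 CPM in control MemB. Each KI library was above each control library, but replicate 1 alone set much of the mean of 12 ± 12.6 CPM (SD, n = 3) against 1.45 ± 1.1 (SD, n = 3). The log2 fold change of Bub1 was 3.04 (standard error 1.44) and 1.71 without KI MemB replicate 1. Mad1l1, whose product is the kinetochore receptor of MAD2, was at 13.6, 4.5 and 17.5 CPM in KI MemB and at 1.29, 0.354 and 0.694 in control MemB. The lowest KI library was more than 3 times the highest control library, and the log2 fold change was 3.92 (standard error 1.29), the greatest of the 10 genes. The control values rested on 12 to 45 counts per library.

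Bub3, the adaptor that brings BUB1 and BUBR1 to kinetochores, was at 78.4, 71.1 and 136 CPM in KI MemB and at 61.7, 48.8 and 44.2 CPM in control MemB. The groups did not overlap, and the log2 fold change was small, 0.88 (standard error 0.39). It was 0.45 without the 4 libraries numbered 3. Bub1b, which encodes BUBR1, the kinase-like subunit of the mitotic checkpoint complex, was at 3.36, 7.37 and 27 CPM in KI MemB and at 11.3, 0.62 and 5.67 in control MemB. These libraries overlapped, and the log2 fold change of 1.10 (standard error 1.15) was -0.12 without KI MemB replicate 3, and ranged up to 1.99 with other libraries left out. Mad2l1, which encodes the MAD2 that binds CDC20, was at 13, 23.8 and 10.8 CPM in KI MemB and at 11.9, 6.23 and 14.6 in control MemB. Its libraries overlapped too, and the log2 fold change was 0.54 (standard error 0.79). It came to 0.13 without KI MemB replicate 2, 0.26 without control MemB replicate 2 and 1.04 without the 4 libraries numbered 3. Of the 5 checkpoint genes, Bub1, Bub3 and Mad1l1 had libraries without overlap and Bub1b and Mad2l1 did not, and all 5 log2 fold changes were above 0.

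The target of the checkpoint, the APC/C, was represented by its catalytic subunit and its coactivator. Anapc11 was at 30.5, 27 and 42 CPM in KI MemB and at 6.64, 3.51 and 13.3 CPM in control MemB. Every KI library was above every control library, with means of 33.2 ± 7.81 (SD, n = 3) and 7.81 ± 4.98 (SD, n = 3) and a log2 difference of 2.09 (standard error 0.75). Over all alternatives run that difference lay between 1.74 and 2.71. Cdc20 was at 20.4, 0.339 and 7.83 CPM in KI MemB and at 0.114, 0.207 and 3.62 CPM in control MemB. It was either near 0 or at several CPM within each group, with 11 counts in KI MemB replicate 2 and 595 in replicate 1. The groups overlapped, and the log2 fold change of 2.86 (standard error 1.68) became 5.86 without control MemB replicate 3, the control library in which Cdc20 was counted 120 times, and 1.64 without KI MemB replicate 1. Without the 4 libraries numbered 3 it was 6.01, and with sex as a covariate it was 5.02.

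Aspm, Top2a and Mki67 stand for the spindle and the chromosomes. Aspm, the spindle pole gene, was at 142, 68.3 and 84.3 CPM in KI MemB and at 14.1, 17.5 and 19.2 CPM in control MemB. The lowest KI library was over 3 times the highest control library, the means were 98.1 ± 38.7 and 16.9 ± 2.59 CPM (SD, n = 3 each), and the log2 fold change was 2.54 (standard error 0.53). Top2a, the topoisomerase of replicated chromosomes, was at 218, 108 and 159 CPM in KI MemB and at 46.5, 74.3 and 71.7 CPM in control MemB. The libraries did not overlap, and the log2 fold change was 1.33 (standard error 0.41). Mki67 was at 490, 286 and 410 CPM in KI MemB and at 158, 234 and 241 CPM in control MemB. The gap was narrow, from 241 to 286 CPM, and the log2 fold change was 0.90 (standard error 0.35). In these bulk libraries a larger share of cells in mitosis and more of these transcripts per cell cannot be told apart.

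In all, 7 of the 10 genes had KI MemB libraries that did not overlap those of control MemB, each of them higher in KI, where 12.1% of the genes tested did not overlap and 6.04% were higher throughout. All 10 log2 fold changes were above 0, as were those of 48.4% of the genes tested, with a median of 1.71 against -0.03 over the genes tested. Nothing is read from these counts, because the choice of the genes used the same difference. The median stayed between 1.59 and 2.03 with any single library left out, and the number of genes that did not overlap was 7 or 8, or 9 without the libraries numbered 3.

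**Figure D2:**
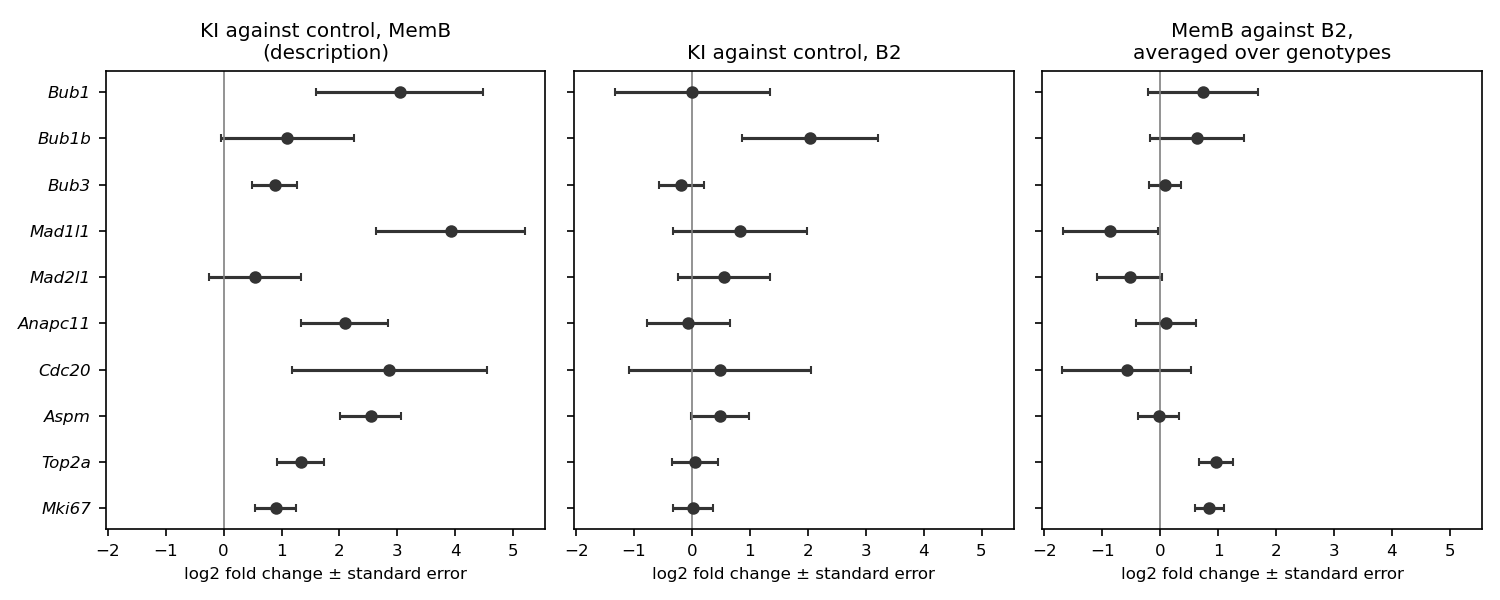
Log2 fold changes with their standard errors from edgeR for the 10 genes in KI against control MemB (left, a description), KI against control B2 (middle) and MemB against B2 averaged over the genotypes (right). The median of the 10 genes is 1.71 on the left and 0.26 in the middle, and Top2a and Mki67 lie at 0.96 and 0.85 on the right.

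B2 libraries were not those from which the genes had been chosen, so the same genotype comparison could be tested in them. Whether they came from the same mice as the MemB libraries is not given in the sources used here, so the test may not be independent of the MemB values. Bub1b was the only one of the 10 genes whose B2 libraries did not overlap, at 14.5, 6.23 and 13 CPM in KI and at 1.79, 0.405 and 6.01 CPM in control. The lowest KI library was barely above the highest control library, and the log2 fold change of 2.04 (standard error 1.18) did not pass the test (adjusted p = 0.88, edgeR quasi-likelihood test with Benjamini-Hochberg adjustment over all genes tested). Without control B2 replicate 3 it was 3.36, again short of the threshold (adjusted p = 0.902, edgeR), and over all alternatives it lay between 1.52 and 3.36 with an adjusted p of 0.483 or more. Genes were called when the adjusted p was under 0.05 and expression differed by over 1 on the log2 scale. None of the 10 was called in B2, where 0.0067% of all genes were, and 0 had an unadjusted p under 0.05 (5.73% of all genes). DESeq2 called 0 of the 10, where it called 1.32% of all genes. The 1 gene of 10 without overlap is near the 10.2% of all genes.

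Mki67 had nearly equal means in B2, 162 ± 93.9 CPM in KI and 160 ± 75.5 in control (SD, n = 3 each), and the log2 fold change came to 0.02 (standard error 0.35). Top2a was likewise at 53.1 ± 24.9 and 51.4 ± 25 CPM (SD, n = 3 each), and the log2 fold change was 0.05 (standard error 0.40). Both spanned over 2-fold within each B2 group. Without KI B2 replicate 3 the log2 fold changes were -0.55 for Mki67 and -0.41 for Top2a. Without control B2 replicate 3 they were 0.44 and 0.39. Aspm was at 47.9, 27.5 and 72.6 CPM in KI B2 and at 21.2, 16.7 and 67.5 in control B2, and its log2 fold change of 0.49 (standard error 0.50) moved to 1.39 without control B2 replicate 3 (adjusted p = 0.902, edgeR) and to 0.10 without KI B2 replicate 3. For Bub1, Bub3, Mad1l1, Mad2l1, Anapc11 and Cdc20 the B2 log2 fold changes lay between -0.18 and 0.83, with overlapping libraries. Single libraries set some of these values: Cdc20, at 0.48, was at 4.80 without control B2 replicate 3 (adjusted p = 0.902, edgeR), at 4.08 without all libraries numbered 3 and at -0.27 without KI B2 replicate 3. Bub1, at 0.01, was at 1.19 without control B2 replicate 1 and at -1.43 without all libraries numbered 3. Mad2l1, at 0.55, was at 1.17 without control B2 replicate 1 and at 0.01 without KI B2 replicate 3. A missed threshold does not show that KI and control B2 were alike, since in counts simulated for this comparison the test recovered 2 of 67 genes changed by 1 on the log2 scale, 13 of 67 changed by 2 and 17 of 66 changed by 3.

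MemB were then compared with B2 over both genotypes. The MemB libraries are those from which the genes had been chosen, so this is not an independent set. The comparison takes the sum of the MemB groups, and genes chosen as high in KI MemB raise that sum too. Adjusted p and calls of these genes for MemB against B2 are therefore not free of the choice. In control mice the MemB mean was 1.25 times the B2 mean for Top2a and 1.32 times for Mki67, with overlapping libraries. In KI mice it was 3.04 and 2.44 times. Top2a was at 46.5 to 218 CPM in the 6 MemB libraries and at 23.8 to 81.9 in the 6 B2 libraries, and the log2 fold change came to 0.96 (standard error 0.29). Its adjusted p was 0.1, and with B2 and MemB of the same genotype and number taken as a pair the log2 fold change was 1.04 (adjusted p = 0.0437, edgeR). Mki67 was at 158 to 490 CPM in MemB and at 86.8 to 267 in B2, and the log2 fold change was 0.85 (standard error 0.25) with an adjusted p of 0.107 in edgeR. Paired in the same way it was 0.95, with an adjusted p of 0.0024 in edgeR but a change under the fold threshold of 1, so that it was not called. Both ranges overlapped, with control MemB inside the B2 range.

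None of the 10 genes was called between MemB and B2, where 1.03% of all genes were. By unadjusted p under 0.05 there were 2 of the 10, Top2a and Mki67, against 12.9% of all genes, and DESeq2 called 0, where it called 5.51% of the 14822 genes to which it gave an adjusted p, the base of each DESeq2 share here. The result depended on the libraries numbered 3 and on other settings as well. The adjusted p of Mki67 was 0.0113 with the replicate block, 0.00994 with sex as a covariate and 0.00186 without the filter on low counts, each in edgeR and each with a change under the fold threshold. Over all alternatives run it lay between 0.00186 and 0.235. That of Top2a was 0.0363 without the filter on low counts, in edgeR and at 0.96 on the log2 scale, also under the fold threshold. Mki67 was called without control B2 replicate 3 (log2 fold change 1.06, adjusted p = 0.0171), without KI B2 replicate 3 (1.13, adjusted p = 0.00358) and without all 4 libraries of that number (1.28, adjusted p = 0.0106). Top2a was called without KI B2 replicate 3 (1.19, adjusted p = 0.0424) and with the pairing by genotype and number given above, but neither without control B2 replicate 3 (1.13, adjusted p = 0.0585) nor without all 4 libraries of that number (1.33, adjusted p = 0.0998). The other 8 genes had log2 fold changes between -0.86 and 0.73 and adjusted p of 0.728 or more in edgeR. Some of these values turned on a single library: Cdc20, at -0.58, was at 1.59 without control B2 replicate 3 and at -2.08 without control MemB replicate 3, Bub1, at 0.73, ran from 0.07 without KI MemB replicate 1 to 1.32 without control B2 replicate 1, and Bub1b, at 0.63, from 0.01 without KI MemB replicate 3 to 1.29 without control B2 replicate 3. None of the 8 was called under any alternative run, the lowest adjusted p being 0.388 for Mad1l1 in DESeq2.

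Within the genotypes the cell types lay differently. In control mice no gene of the 10 was higher in MemB throughout, while Bub3, at 44.2 to 61.7 CPM in MemB against 65.7 to 77.8 in B2, and Mad1l1, at 0.354 to 1.29 against 1.6 to 6.15, were lower throughout. Of the genes tested, 6.34% were higher and 5.94% lower throughout in control MemB. In KI mice Anapc11 was at 27 to 42 CPM in MemB against 12.4 to 16.1 in B2, Top2a at 108 to 218 against 37.1 to 81.9, and Mki67 at 286 to 490 against 86.8 to 267. These 3 were higher throughout, as were 7.31% of the genes tested. Both comparisons contain MemB libraries that informed the choice, and whether they differ was not tested.

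The libraries numbered 3 stood apart in B2. Mki67 was at 240 and 267 CPM in replicate 3 of control and KI B2 and at 86.8 to 149 in the other 4 B2 libraries. Top2a was at 72.7 and 81.9 CPM against 23.8 to 57.6, and Aspm at 67.5 and 72.6 against 16.7 to 47.9. Cdc20 was at 13 and 11.2 CPM against 0.169 to 7.27. These 4 of the 10 genes were higher in both libraries, where 7.07% of all genes were, a split noticed in the data and not tested. The 5 checkpoint genes and Anapc11 overlapped or, for Mad1l1, lay lower, at 1.6 and 3.4 CPM against 4.73 to 9.56. The high Xist counts go with the same libraries, and the part of sex in these levels was not tested.

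**Figure D3:**
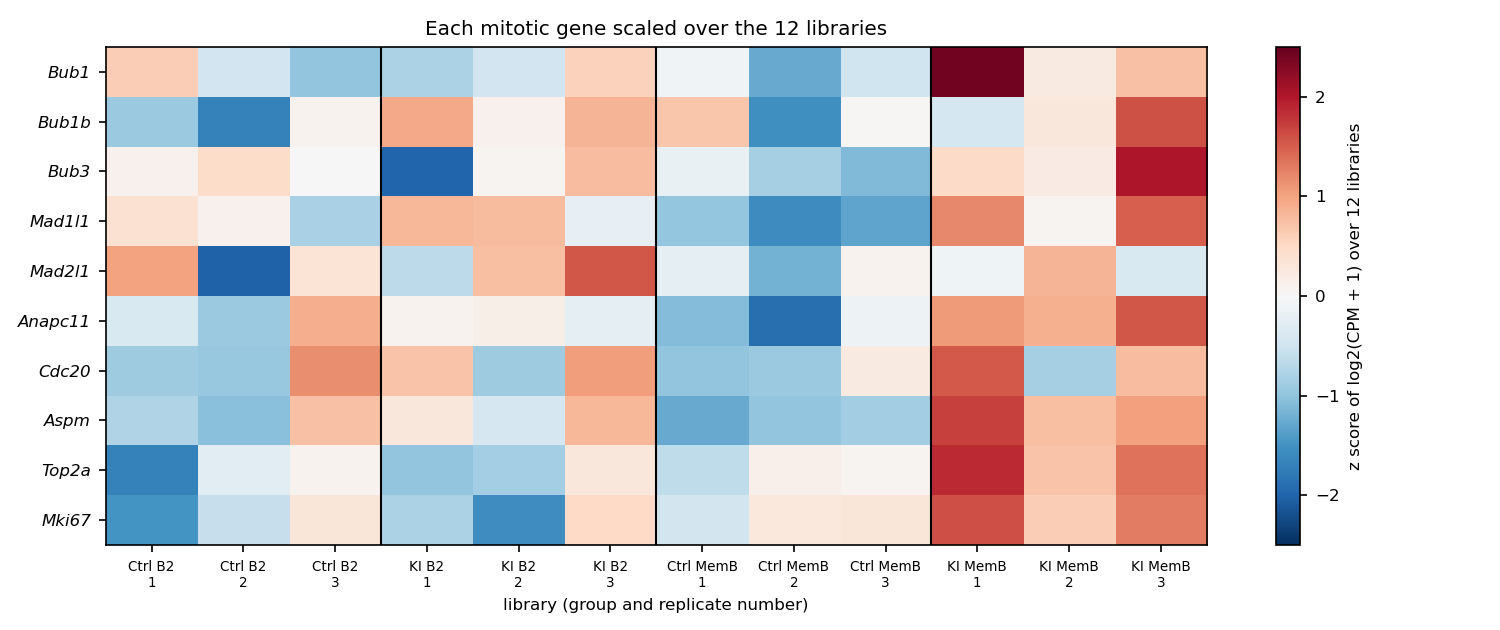
Each gene's log2(CPM + 1) scaled to a z score over the 12 libraries (red above and blue below that gene's mean), with libraries in columns by group and replicate number. In KI MemB replicates 1 and 3 the mean z score over the 10 genes is 1.14, in replicate 2 it is 0.38, and in control MemB it is -0.98 to -0.32.

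Across the 12 libraries the genes varied together to differing degrees. Of the 45 pairs of genes, 43 had a positive Pearson r on log2(CPM + 1), with a median of 0.45 and a range of -0.07 to 0.96. The closest pair was Top2a with Mki67 (r = 0.96, Spearman rho = 0.94, n = 12 libraries), and the ratio of Mki67 to Top2a CPM stayed between 2.14 and 3.78. Anapc11 with Aspm (r = 0.83) and Cdc20 with Aspm (r = 0.79) came next. Mad2l1 went with none of the chromosome genes (r = -0.07 with Top2a and -0.04 with Mki67). Aspm followed the mean of the other 9 genes most closely (r = 0.90) and Mad2l1 least (r = 0.28). These values are descriptions, since the libraries share their groups and KI MemB, high by choice of the genes, supplies 3 of the 12 points.

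**Figure D4:**
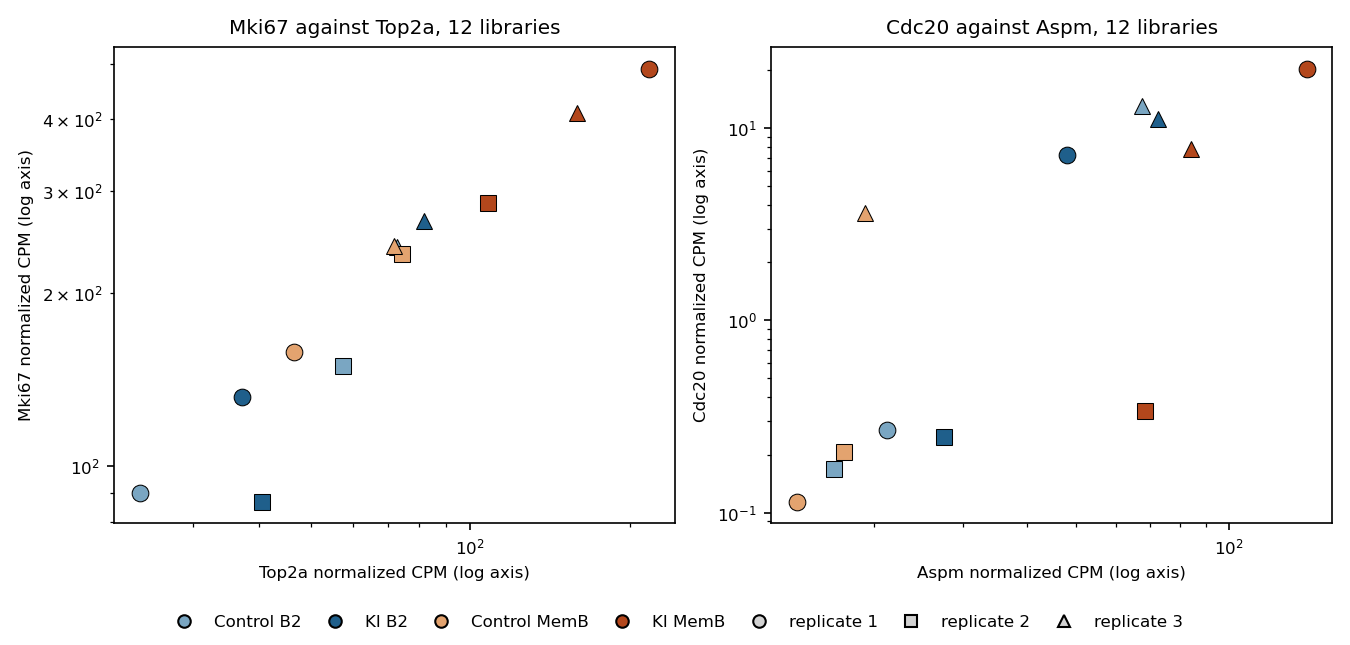
Mki67 against Top2a (left) and Cdc20 against Aspm (right) in normalized CPM, log axes, 1 point per library, coloured by group and shaped by replicate number. Mki67 and Top2a lie along a line (r = 0.96 on log2(CPM + 1)), while Cdc20 falls into libraries at 3.62 CPM or more and libraries at 0.339 CPM or less.

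The partners of these genes in mitosis were read from 7 lists with 143 genes, of which 142 were tested. In KI against control MemB 0 of the 142 were called by edgeR, where 0.281% of all genes were, 15 were higher and 3 lower at an unadjusted p under 0.05 (4.82% and 6.23% of all genes), and DESeq2 called 8 higher and 2 lower, where it called 2.33% of all genes higher and 2.91% lower. By list, the median log2 fold change was 1.24 for 21 spindle and cytokinesis genes, 0.74 for 30 kinetochore and centromere genes, 0.53 for 14 mitotic kinase genes and 0.42 for 12 checkpoint partners, against -0.03 over all genes. The other 20 APC/C genes, at a median of 0.01, the 23 chromosome structure genes at 0.11 and the 22 regulators of G2/M transcription at 0.11 lay near that of all genes.

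Ncapd2, a subunit of condensin, was at 17.9 to 49.7 CPM in KI MemB and at 3.74 to 4.06 in control MemB, with the lowest adjusted p of the lists in that comparison (log2 fold change 2.96, standard error 0.76, adjusted p = 0.101, edgeR). Ncaph, a subunit of the same complex, was the other way, at 1.05 to 3.58 CPM in KI MemB and 8.23 to 48.5 in control MemB (log2 fold change -3.44, standard error 1.08, adjusted p = 0.258, edgeR). Mastl, the kinase that restrains the phosphatase PP2A in mitosis, was at 3.83 to 16.3 CPM in KI MemB and at 0.372 to 0.483 in control MemB (adjusted p = 0.14, edgeR). Ect2, the exchange factor that starts the cleavage furrow, was at 12.1 to 44.9 and 0.458 to 5.1 CPM (adjusted p = 0.295, edgeR), and Aurka, the spindle pole kinase, at 1.51 to 10 and 0 to 0.601 CPM (adjusted p = 0.363, edgeR). None of these passed. Among the APC/C genes Pttg1, which encodes the separase inhibitor securin, was at 27.1 to 84.8 CPM in KI MemB and at 17.7 to 28.4 in control MemB, with an overlap (adjusted p = 0.347, edgeR). Of the checkpoint partners, Mad2l1bp, whose product helps to silence the checkpoint, was at 0.206 to 23.2 CPM in KI MemB and at 0.483 to 3.51 in control MemB. Zw10, of the complex that brings dynein to kinetochores, was at 2.88 to 7.82 and 2.47 to 29.4 CPM, so that both overlapped.

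In B2 0 of the 142 were called by edgeR, 6 were higher and 4 lower in KI at an unadjusted p under 0.05 (2.85% and 2.88% of all genes), and DESeq2 called 1, against 1.32% of all genes. Foxm1, the transcription factor of many G2/M genes, was at 19.2 to 27.4 CPM in KI B2 and at 0.439 to 11.4 in control B2 (log2 fold change 2.41, standard error 1.00, adjusted p = 0.837, edgeR). Sgo2a was lower throughout, at 1.45 to 4.43 CPM in KI B2 and 6.52 to 24.7 in control B2 (log2 fold change -2.27, standard error 0.93). Ncaph (log2 fold change -3.01, standard error 1.06) and Ska3 (-4.33, standard error 1.83) were also lower in KI B2, with overlapping libraries. Each of these had an adjusted p of 0.837 in edgeR. Between MemB and B2 1 of the 142 was called, a share no larger than the 1.03% of all genes: Kif23, which encodes the kinesin of the central spindle. It was at 52.7 ± 18.1 CPM in MemB and 18.8 ± 12.7 in B2 (SD, n = 6 each), which is 1.56 on the log2 scale (standard error 0.40), at an adjusted p of 0.0396 in edgeR. Leaving out libraries in turn ended the call for 8 of the 12, with adjusted p between 0.0126 and 0.133, while the difference stayed between 1.40 and 1.90 on the log2 scale. At an unadjusted p under 0.05 there were 19 higher and 2 lower (6.8% and 6.12% of all genes), and DESeq2 called 7 higher and 1 lower (2.62% and 2.89% of all genes). Nek7, Haspin and Tfdp1 were nearest to the threshold among the rest, with adjusted p of 0.0892, 0.108 and 0.1.

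Of the marker lists of other cells, the sums for T and NK cell and B-1 cell genes did not overlap between KI and control MemB, and the others did. The 7 germinal centre genes summed to 60.2 to 94.3 CPM in KI MemB and to 17.9 to 61.5 in control MemB, and each of the 7 was counted above 3 in some library of both groups. The 7 plasma cell genes summed to 440 to 581 and 405 to 646 CPM, with Sdc1 at 3 counts or fewer in control MemB, and the genes of that list went different ways. Jchain was at 72.6 to 197 CPM in KI MemB and at 5.61 to 18.1 in control MemB, while Irf4 was at 203 to 243 against 268 to 387 and Mzb1 at 57.6 to 99 against 100 to 147. The 9 T and NK cell genes summed to 1.99 to 49.1 CPM in KI MemB against 79.6 to 120 in control MemB. Singly, Cd3d, Cd3g, Cd8a and Nkg7 were lower throughout in KI MemB, while the libraries overlapped for Cd3e, Trac, Cd4, Klrb1c and Ncr1. The 5 mast cell genes summed to 0.786 to 1.78 CPM in KI MemB against 1.54 to 243 in control MemB. The 6 B-1 cell genes summed to 478 to 542 CPM in KI MemB and to 661 to 685 in control MemB, and the 8 macrophage and monocyte genes to 46 to 101 and 40.6 to 100. Most of the latter sums came from Itgam, at 44.9 to 99.6 CPM in KI MemB and 24.5 to 96.2 in control MemB. Cd14, Gata6 and Fcgr1 were at 3 counts or fewer in both groups, and Timd4 in KI MemB. The part of these cells in the levels of the mitotic genes was not tested.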

How the data were processed

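RNA of sorted PerC B2 and MemB was measured in 12 libraries, 3 per group. The authors used cutadapt 4.5 for trimming, STAR 2.7.11a for alignment to mm39 and RSEM 1.3.3 for quantification (versions from the submitters' processing notes), and deposited the expected counts per gene without normalization. RSEM divides reads among similar genes, and 32.2% of values above 0 had a fraction. The kit amplified the RNA without molecular identifiers, so that counts are of reads and not of molecules.

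Expected counts were rounded. The 813 of 56941 rows without a symbol (0.605% to 0.689% of the counts) were left out. edgeR 4.0.16 (R 4.3.3; TMM, filterByExpr with min.count 10, quasi-likelihood F test with robust fitting, Benjamini-Hochberg adjustment) was fitted to all 12 libraries with 4 group means, and the common biological coefficient of variation was 91.3%. The standard error is the log2 fold change divided by the square root of F. P-values measure the spread between these libraries. Steps were tested on simulated data. The genes, lists and tests were chosen with earlier results of these data known. The rule named all 10 genes, list genes that were called or else had the 2 lowest p in a comparison, the 10 genes most alike in profile, Gpr34 and cell type markers. From the list genes the text names a selection, and Jchain, Irf4, Mzb1, Ighm and Itgam were singled out after their values were seen. Alternatives were other scalings and filters, DESeq2 1.42.0, non-robust and 6-library fits, replicate blocks and each library left out. Leaving out the libraries numbered 3 together and a sex covariate were added after seeing the data. Protein sequences were not used here.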

Additional observations from a re-analysis of the deposited data

How the results depend on the processing

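None of the 10 mitotic genes was called in KI against control B2 under any alternative run. Genes called there numbered 1, and 8 without the filter on low counts, 195 by DESeq2, 2 without the libraries numbered 3 and 1 to 2 with a library left out. Between MemB and B2 the genes called numbered 154 (98 higher, 56 lower), 237 without the filter, 817 by DESeq2 (389 higher, 428 lower) and 88 without the libraries numbered 3. Of the 10 genes 0 were called, 1 (Top2a) with the replicate block within genotype, which pairs B2 and MemB of a genotype and number, 1 without the libraries numbered 3 and 0 to 2 with a library left out. Of all genes, 124 were called with that block within genotype and 104 to 157 with a library left out. In KI against control MemB 42 genes were called (12 higher, 30 lower), 89 without the filter, 776 by DESeq2 (345 higher, 431 lower), 21 without robust fitting, 12 in the 6 MemB libraries alone, 23 without the libraries numbered 3 and 15 to 49 with a library left out. Why these counts differ was not tested. The call of Kif23 was also lost without robust fitting (adjusted p = 0.0706, edgeR), with the replicate block (adjusted p = 0.0566, edgeR) and with sex as a covariate (adjusted p = 0.0538, edgeR), with log2 fold changes of 1.56, 1.56 and 1.55.

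The replicate numbers were not taken as pairs: in 18 same-numbered pairs the correlation of deviations from the group means was -0.0131 to 0.0278, none over 0.1. As a hint from the data, 11 of 12 libraries correlated best with their own number in the other cell type of the genotype, and those numbered 3 share a sex by Xist. Whether same-numbered B2 and MemB came from a single mouse is not given in the sources used here. The replicate block gave 1, 128 and 36 genes called in KI against control B2, MemB against B2 and KI against control MemB, and 0 of the 10 in both tested comparisons. Counts were lowest for Cdc20, Bub1, Bub1b and Mad1l1, with 4, 11, 12 and 12 in their lowest libraries.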

Other observations

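Outside the mitotic lists, the genes whose levels followed the mean scaled profile of the 10 genes most closely over the 12 libraries were Rpa1, a subunit of the single-stranded DNA binding protein of replication (Pearson r = 0.92), Cox18, a mitochondrial membrane insertase (r = 0.92), and Map9, a spindle-associated microtubule protein (r = 0.90). Rpa1 was at a mean of 70 CPM in KI MemB, 31.1 in control MemB, 44.1 in KI B2 and 40.5 in control B2. Map9 was at 8.37 CPM in KI MemB and at 0.125 to 1.31 in the other 3 groups. Sgo1, the shugoshin that protects centromeric cohesion and itself on a list, was at 14.1 CPM in KI MemB, 1.07 in control MemB, 5.41 in KI B2 and 7.21 in control B2 (r = 0.89).

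Cdkn1a, the inhibitor of cyclin-dependent kinases known as p21, also lay among the closest 10 (r = 0.88), at 22.9 CPM in KI MemB, 0.448 in control MemB, 7.49 in KI B2 and 0.57 in control B2. Idi1, an enzyme of isoprenoid synthesis, was at 80.3, 30.2, 52 and 41.2 CPM in the same order (r = 0.89). Gm10073 (r = 0.89), Laptm5 (r = 0.89), Xylb (r = 0.88) and Prss30 (r = 0.87) completed the 10. Of all genes tested, 1.26% had an r above 0.7 with the profile. These correlations are descriptions over libraries that share their groups, and nothing on common control is read from them.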
